A study of Mus musculus with 8 samples.

Results

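The alpha and mu classes of cytosolic glutathione transferase were followed across mouse brain, kidney and liver after lead exposure. The set held 3 alpha genes (Gsta2, Gsta3 and Gsta4) and 7 mu genes (Gstm1 to Gstm7), 10 in all, and every non-control probe that the array assigned to one of them was taken. They were 10 of 37074 gene names and 16 of 56605 probes on the array, 5 for the alpha and 11 for the mu genes, and each is described apart because the genes resemble each other in sequence. There were 5 genes with 1 probe, 4 genes with 2 probes and 1 gene, Gsta3, with 3. All animals were male mice. For 3 weeks the drinking water was distilled water for controls and held lead acetate for the exposed mice, at 100 mg/L in the low-dose and at 1000 mg/L in the high-dose group. RNA came from small pieces of tissue, and neither a strain nor an age is stated in the labels. Of the 8 arrays, 3 were of brain and 3 of kidney (control, low dose, high dose) and 2 of liver (high dose, control); low-dose liver was not analysed here. Each group was 1 array, so a difference between groups has no replicate check, and the labels do not say which tissues came from the same mouse or whether animals were pooled.

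Glutathione transferases join the tripeptide glutathione to reactive electrophiles, which prepares them for export from the cell and for conversion to mercapturic acids. Alpha and mu enzymes are abundant in liver, and in rodents many of their genes respond to electrophiles and xenobiotics through the transcription factor NRF2, which binds antioxidant response elements, and through nuclear receptors. The mu genes of the mouse lie side by side in 1 cluster on chromosome 3.

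The probes are 60-base DNA oligonucleotides. The 4 below are shown whole because each crosses an exon junction, its stated mm9 span being longer than the probe, so that each reads spliced RNA. Gsta4 was at chr9:78046172-78047344 on the plus strand, Gstm4 at chr3:107846495-107846847, Gstm6 probe 1 at chr3:107745662-107746199 and Gstm7 probe 1 at chr3:107732073-107733247, the last 3 on the minus strand.
Gsta4: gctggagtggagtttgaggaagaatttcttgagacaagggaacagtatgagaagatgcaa
Gstm4: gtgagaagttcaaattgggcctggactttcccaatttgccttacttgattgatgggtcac
Gstm6 probe 1: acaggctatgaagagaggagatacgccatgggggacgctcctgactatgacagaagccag
Gstm7 probe 1: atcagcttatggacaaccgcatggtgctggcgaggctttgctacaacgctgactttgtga

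For probes without such a junction the first 30 bases are given, here for an alpha and a mu gene called in the high-dose kidney (Gsta3, Gstm3), for Gsta2, which differed most there, and for Gstm5, which differed least. Gsta2 was at chr9:78178856-78178915 (minus strand), Gsta3 probe 1 at chr1:21255189-21255248 (plus), Gstm3 at chr3:107766730-107766789 (minus) and Gstm5 probe 2 at chr3:107701101-107701160 (plus), all in mm9. Their exon or UTR was not analysed here.
Gsta2: gccacagatactggcctctaattgtttgca
Gsta3 probe 1: tgacgaggaacggccggatgctctctagtt
Gstm3: tagaaataccctgatggtcaatactatctt
Gstm5 probe 2: tctcacctatgatgtcttggatcagaaccg

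No pair of the 16 probes shared a run of more than 9 identical bases. The longest run does not measure likeness broken by mismatches or gaps. Binding of a probe to RNA of another family member was not tested.

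Levels are log2 values of the scanner's processed signal relative to the 75th percentile of the same array, and differences are log2 differences of such levels. That percentile lay at a signal of 919 to 954 on brain, 729 to 782 on kidney and 427 to 435 on liver arrays, and 53.4% to 67.1% of spots were well above background. Of the 16 probes, 13 were well above background on all arrays; the other 3 (Gsta2, Gsta3 probe 3 and Gstm7 probe 2) were not. The tissue labels fitted their markers: 10 proximal tubule genes summed to 1825 to 2076 times the percentile on kidney arrays and 10 hepatocyte genes to 7062 and 7330 times on liver arrays. The 2-fold rule called a probe that was well above background and unsaturated on both arrays, with a difference of 1 or more in size that also exceeded 3 array errors. The array error combines the scanner software's errors for both arrays and was 0.21 for the median probe. A smaller size rule asked for at least 0.5 on probes measured the same way.

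**Figure D1:**
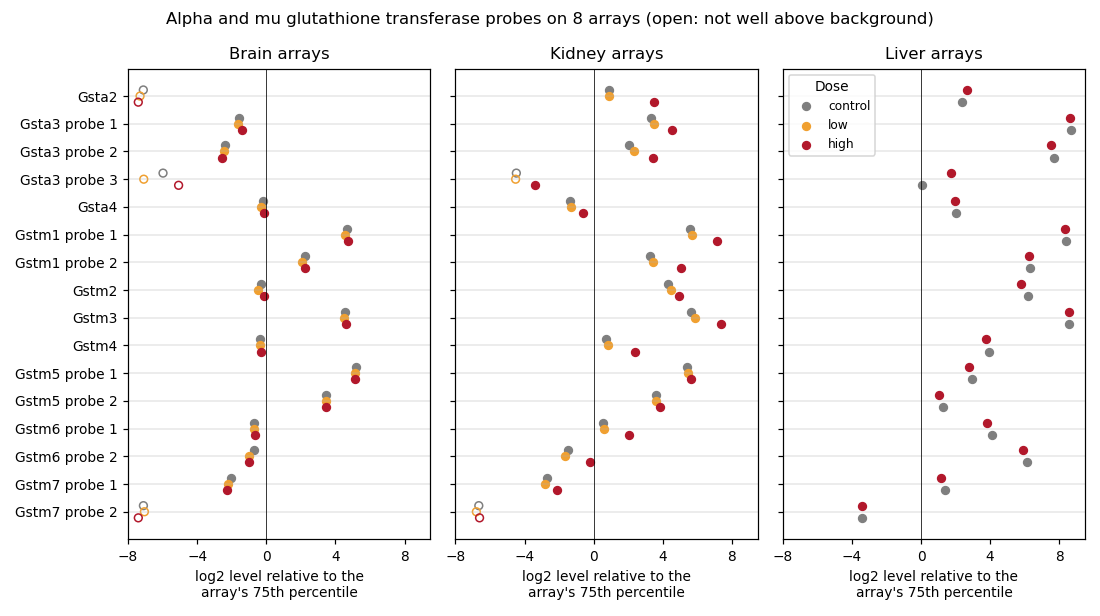
Log2 level, relative to the array's 75th percentile, of each of the 16 alpha and mu probes (rows) on the brain, kidney and liver arrays (panels), coloured by dose, with open circles for spots not well above background. On the kidney panel the high-dose points of Gsta2, Gstm1, Gstm3, Gstm4 and Gstm6 stand apart from the control and low-dose points, which lie next to each other.

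In kidney, most of the family was higher at the high dose and close to control at the low dose. On the high-dose array 9 of 14 measured probes, from 6 of the 10 genes, passed the 2-fold rule and all 9 were higher. Over all probes the rule called 1.42% in either direction and 0.928% higher. By the smaller rule 12 probes, from 9 genes, were higher and 0 lower, against 7.87% of all probes in either direction and 3.99% higher. The median difference of the 14 was 1.29, with a median of -0.03 and an SD of 0.32 over all 31998 measured probes. RNA came from whole tissue pieces, so more RNA per cell and more cells of a type rich in these enzymes cannot be told apart.

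Among the alpha genes, Gsta2, an inducible transferase of rodent liver, had a level of 0.87 on the control, 0.89 on the low-dose and 3.51 on the high-dose kidney array. The first 2 were nearly equal, and the high-dose level was 6.24-fold above control (log2 difference 2.64, array error 0.20). This was the 30th highest difference of the 31998 measured probes. Gsta3 encodes an enzyme known in the mouse for detoxifying the epoxide of aflatoxin. Its probe 1 had levels of 3.31, 3.49 and 4.52 on the control, low-dose and high-dose kidney arrays, and its probe 2 had 2.05, 2.31 and 3.41. Both probes were called, with high-dose minus control differences of 1.21 and 1.35. Gsta3 probe 3, placed at mm9 chr1:21246334-21246393 upstream of the other 2 probes, was well above background on the high-dose kidney array alone of the 3 kidney arrays, at -3.37. Its control signal, at -4.48, was not well above background. The ratio of these signals was 2.15-fold, with an array error of 0.38 in log2, and was not called. Gsta4, whose enzyme acts on 4-hydroxynonenal and related products of lipid peroxidation, had levels of -1.37, -1.31 and -0.61 in the same order. Its difference of 0.76 (1.69-fold) passed the smaller rule only.

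Among the mu genes, Gstm1, Gstm3, Gstm4 and Gstm6 were called by every probe they had. Gstm1, a major mu enzyme of mouse liver, had levels of 5.58, 5.72 and 7.16 by probe 1 and of 3.25, 3.41 and 5.03 by probe 2 on the control, low-dose and high-dose kidney arrays. The probes gave high-dose differences of 1.58 and 1.78, or 2.98-fold and 3.44-fold. Gstm3 had levels of 5.63, 5.87 and 7.36, a difference of 1.72 (3.30-fold). Gstm4 had 0.74, 0.84 and 2.39, a difference of 1.65 (3.14-fold). In each of these genes the low-dose level lay within 0.23 of control and the high-dose level stood far above both. Gstm6 had levels of 0.56, 0.59 and 2.03 by probe 1 and of -1.46, -1.64 and -0.22 by probe 2, with high-dose differences of 1.46 and 1.24.

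The remaining mu genes differed less. Gstm2 had levels of 4.32, 4.47 and 4.95 on the control, low-dose and high-dose kidney arrays, and its difference of 0.63 (1.55-fold) passed the smaller rule only, as did that of Gstm7 probe 1 at 0.58 (levels of -2.72, -2.84 and -2.14). Gstm5, a mu transferase best known from brain and testis, had 5.38, 5.45 and 5.61 by probe 1 and 3.61, 3.60 and 3.85 by probe 2. Its probes differed by 0.24 each at the high dose, which is close to 1 array error. Gstm7 probe 2 was not well above background on any kidney array.

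**Figure D2:**
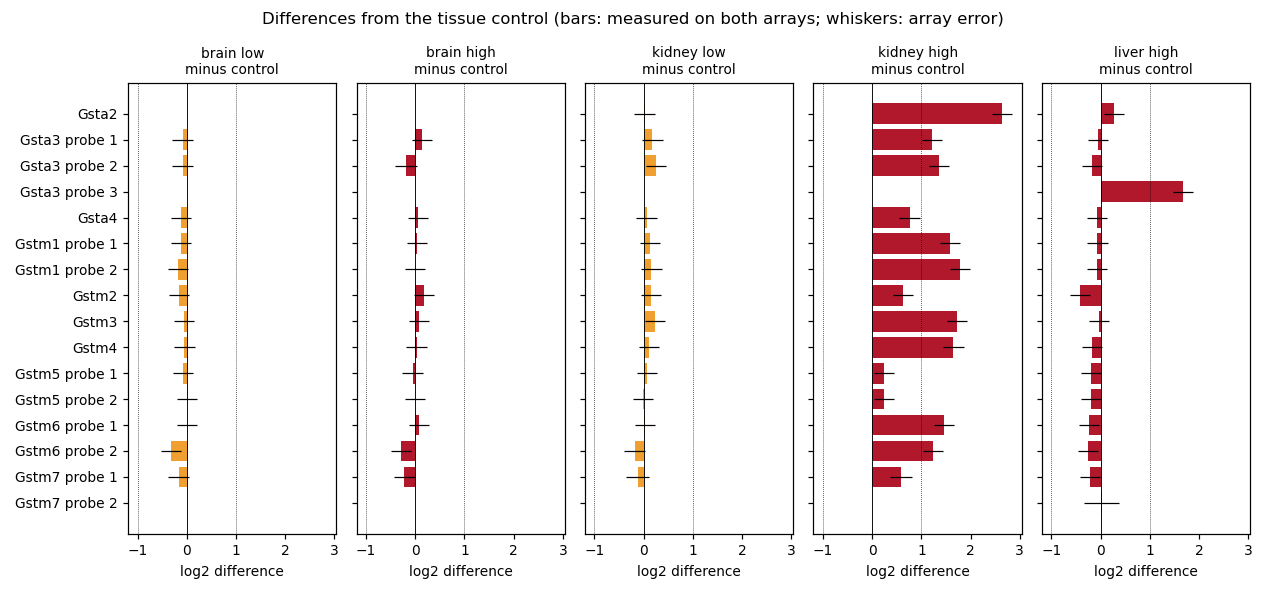
Log2 difference from the control array of the same tissue (horizontal axis) for each probe (rows) in the 5 comparisons with a control (panels), for probes well above background on both arrays; whiskers give the array error and dotted lines mark a difference of 1. Of these panels the high-dose kidney holds 9 bars past 1, the high-dose liver holds 1 (Gsta3 probe 3), and the others hold none.

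At the low dose 0 of the 14 measured kidney probes passed either rule, against 0.475% of all probes by the 2-fold rule and 3.97% by the smaller one. Their differences from control ran from -0.18 for Gstm6 probe 2 to 0.26 for Gsta3 probe 2, with a median of 0.09. Set against the low-dose array, the high-dose array was higher by the 2-fold rule for 9 of the 14 probes (0.978% of all probes in either direction) and by the smaller rule for 11 (4.92% in either direction). This contrast shares the high-dose array with the one against control. Gsta2 differed there by 2.63, Gstm1 probe 2 by 1.63 and Gstm3 by 1.49, while Gstm2, at 0.48, fell just under the smaller rule.

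The mu genes follow each other on mm9 chromosome 3 in the order Gstm5, Gstm7, Gstm6, Gstm3, Gstm2, Gstm1 and Gstm4, with Gstm5 on the plus strand and the other genes on the minus strand. The high-dose kidney difference was smallest at the Gstm5 end, at 0.24, and at least 1.24 for each probe of Gstm6, Gstm3, Gstm1 and Gstm4. Gstm2, which lies between Gstm3 and Gstm1, broke that run at 0.63. Gstm1 probe 1 is left out of this order because the array file places it at mm9 chr5:117082490-117082549.

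**Figure D3:**
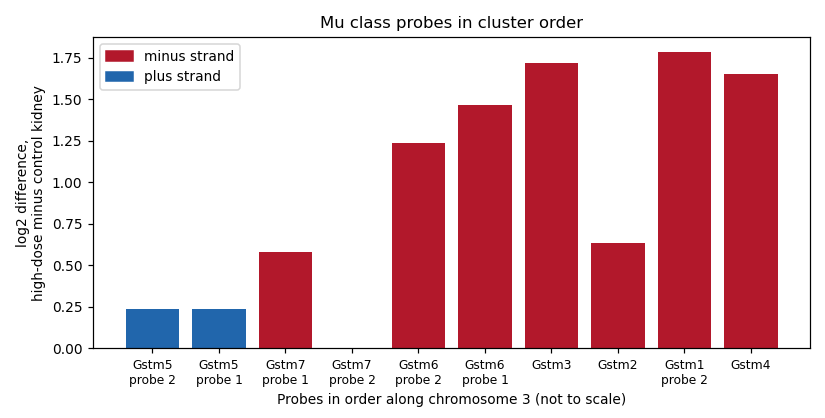
High-dose minus control log2 difference in kidney (bar height) for the mu probes in their order along chromosome 3 (horizontal axis, not to scale), coloured by strand; Gstm7 probe 2, not well above background on either array, has no bar. The plus-strand Gstm5 probes stand at 0.24, and Gstm2 at 0.63 stands lower than the Gstm3 and Gstm1 bars beside it.

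In brain no member probe passed either rule at either dose. Of 13 measured probes 0 were called at the low dose, with differences of -0.32 to 0.01 and a median of -0.09, where 0.742% of all probes passed the 2-fold rule and 4.53% the smaller one. At the high dose 0 of 13 were called, with differences of -0.30 to 0.17 and a median of 0.03, where 0.439% and 3.61% of all probes passed. Gstm1 probe 1, for example, had levels of 4.66, 4.53 and 4.70 on the control, low-dose and high-dose brain arrays, and Gstm3 had 4.56, 4.50 and 4.63. Neither set of levels followed the order of the doses. The brain pieces differed in markers of brain regions: striatum markers were called higher on the low-dose array for 10 of 10 genes (median 1.59) and hippocampus markers lower for 4 of 8 (median -1.20). On the high-dose array choroid plexus markers were called lower for 7 of 9 measured genes (median -1.62) and striatum markers were lower by the smaller rule for 7 of 10. The part of these regions in the members' levels was not tested.

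In liver, where most of these genes had their highest levels, all 16 probes were measured and 1 was called, against 0.85% of all probes by the 2-fold rule and 6.37% by the smaller rule. The called probe was Gsta3 probe 3, with a level of 1.71 on the high-dose and 0.03 on the control array, a difference of 1.68. The other Gsta3 probes did not share it: probe 1 had 8.62 on the high-dose and 8.67 on the control array, and probe 2 had 7.54 and 7.71. Of the 16 probes, 13 were below control and 3 above, and the differences other than that of Gsta3 probe 3 ran from -0.42 for Gstm2 (5.78 on the high-dose and 6.20 on the control array) to 0.28 for Gsta2 (2.66 and 2.38). The 9 probes called in kidney differed here by -0.26 (Gstm6 probe 2) to 0.28 (Gsta2). For example, Gstm1 probe 1 had 8.33 on the high-dose and 8.39 on the control array, Gstm3 had 8.55 and 8.59, and Gstm4 had 3.75 and 3.93.

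The dose effect could be tested only across tissues, in a limma model with tissue and dose as factors and Benjamini-Hochberg adjustment over 25303 probes well above background on all arrays. For the high dose this called 0% of all probes and 0 of 13 member probes (1692 probes, none of them a member, had an unadjusted p under 0.05), and the members' adjusted p-values ran from 0.712 to 0.992. For the low dose it also called 0% and 0 members, with 628 probes at an unadjusted p under 0.05. That model assumes 1 effect in every tissue. In a model chosen after seeing the data, kidney was given a high-dose term of its own. A kidney baseline was fitted from the control and low-dose kidney arrays together, and a shared high-dose effect from brain and liver. The kidney term, which need not equal the difference from control, was the high-dose kidney level minus that baseline and that effect. It called 45 probes, 0.178% of all, with 44 of them (0.174% of all) higher in kidney, and 7 of the 13 members: both probes of Gstm1 and Gstm6, with Gstm3, Gstm4 and Gsta3 probe 2. The differences of these 7 were 1.40 to 1.68 with adjusted p-values of 0.00793 to 0.0230. Gsta3 probe 1 differed by 1.04 (adjusted p = 0.0782), and Gsta2 was not tested because it was below background in brain. The term rests on 1 high-dose kidney array, whose spread is taken from the other arrays, and leaving out another array in turn gave 5 to 8 called members, the lowest without the control kidney. A term of its own for brain called 0 members and 0.00395% of all probes (none of the members had an unadjusted p under 0.05). A term for liver called 0 members and 0.0079% of all probes (1 member, Gstm2, had an unadjusted p under 0.05).

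Some hepatocyte markers stood higher on the same kidney array, and their part in the result was not tested. Of 10 hepatocyte markers 6 were measured on both arrays and 4 of them were called higher at the high dose: Serpina1c (3.22), Hpx (1.67), Ahsg (1.38) and Alb (1.22), each encoding a plasma protein. The summed level of all 10 was 16.9, 16.4 and 44.8 times the percentile on the control, low-dose and high-dose kidney arrays. Most of that increase was Serpina1c, and without it the sum of the other 9 was 14.1, 13.0 and 18.7. Apoa1, Fgb, F2 and Cps1 were not well above background on the control array, so no difference was called for them. Of the 10 markers, 6 were well above background on the control and 8 on the high-dose kidney array. F2 had a signal of 0.0165 times the percentile on the control and 0.349 on the high-dose array. The other signals, in the same order, were 0.0228 and 0.0351 for Apoa1, 0.0129 and 0.0527 for Fgb, and 0.0241 and 0.0386 for Cps1. The increase of each gene on the high-dose over the control kidney array was also expressed as a share of its level on the high-dose liver array. For the 6 measured hepatocyte markers the increase was 0.00911% to 1.63% of the liver level, with a median of 0.0394%. For the 14 measured member probes it was 0.830% (Gstm6 probe 2) to 151% (Gsta2), with a median of 23.3%. Gstm1 had 29.6% and 31.0% by its probes, Gstm3 had 30.5%, Gstm4 26.7% and Gstm6 probe 1 18.1%, while Gsta3 had 3.31% and 3.46%. The Gstm5 probes, which were not called, had 107% and 105%, since their liver level was low. Other hepatocyte lists were not higher in the high-dose kidney against control. Of 6 measured pericentral hepatocyte markers, 0 were higher by either rule and 1 was lower by the smaller rule (median -0.08). Of 6 measured periportal hepatocyte markers, likewise 0 were higher and 1 was lower by the smaller rule (median -0.03). The pericentral and periportal lists already summed to 282 and 245 times the percentile on the control kidney array. A small addition of hepatocyte RNA would therefore not show in these 2 lists.

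Markers of other cell types also differed on the kidney arrays, and their part in the members' result was not tested. Of 10 sperm formation genes 7 were measured at the high dose and all 7 were called higher, with a median of 2.73, and the list summed to 2.64, 1.19 and 20.3 times the percentile on the control, low-dose and high-dose arrays. The same list was called higher in high-dose brain for 4 of 4 measured genes, with a median of 3.74, where 0 of 13 member probes were called. Macrophage markers were higher by the smaller rule for 5 of 8 genes at the high dose (median 0.54) and for 1 of 8 at the low dose. Adipocyte markers were lower by the smaller rule for 7 of 9 genes at the high dose (median -0.64) and for 2 of 8 at the low dose. Urothelium markers were higher on the exposed kidney arrays, with median differences from control of 1.80 (low dose) and 1.66 (high dose) over 4 measured genes. Adrenal markers were lower, called by the 2-fold rule for 2 of 5 measured genes at the low and 3 of 7 at the high dose. Their medians were -0.47 and -0.61, and the largest low-dose difference was -3.70, for Cyp21a1. The adrenal list summed to 5.73, 1.56 and 1.56 times the percentile on the control, low-dose and high-dose arrays. Proximal tubule markers had medians of -0.04 (low dose) and -0.13 (high dose).

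**Figure D4:**
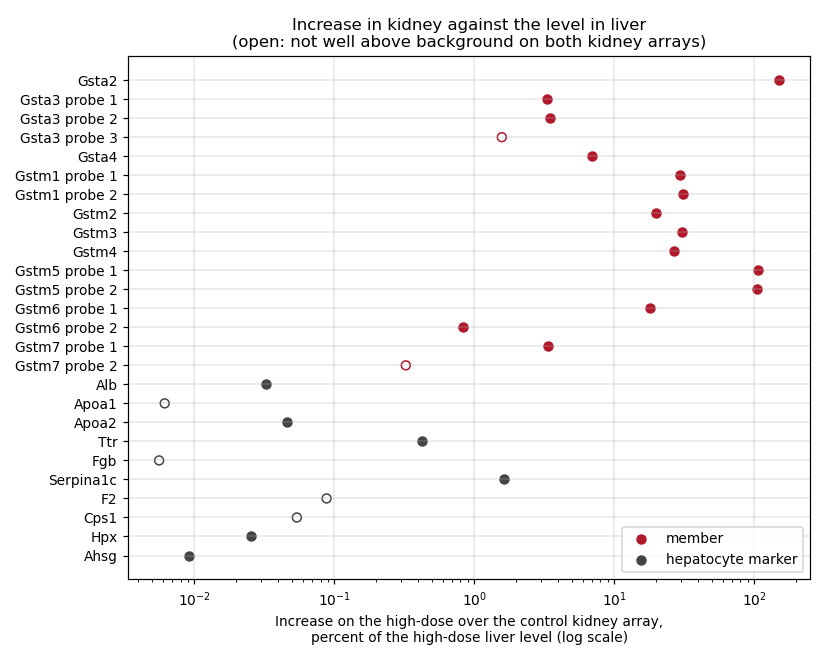
Increase of the linear level on the high-dose over the control kidney array, as a percent of the level on the high-dose liver array (log axis), for each member probe and each hepatocyte marker (rows), with open circles where a probe was not well above background on both kidney arrays. The measured hepatocyte markers lie at 1.63% or less, and the measured members from 0.830% to 151%.

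Between tissues, liver held the highest level of nearly every member, and Gstm5 ran the other way. In the limma model 14 of 16 probes were lower in brain than in liver and 2 were higher, where 81.9% of all probes differed. The 2 were the Gstm5 probes, with mean levels of 5.16 ± 0.04 in brain and 2.88 ± 0.14 in liver by probe 1, and of 3.43 ± 0.01 in brain and 1.15 ± 0.14 in liver by probe 2 (SD over arrays that differ in dose, n = 3 brain and 2 liver arrays). The fitted difference was 2.30 by either probe, with limma adjusted p-values of 8.67e-07 and 1.19e-06. Kidney was likewise higher than liver for Gstm5, by 2.62 and 2.56, and lower for 13 of the other 14 probes, where 66% of all probes differed. The exception was Gsta2, with a kidney minus liver difference of -0.54 (adjusted p = 0.497). That value depends on the high-dose kidney array, since without it the difference was -1.63 and was called.

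Gsta3 fell off steeply outside liver. Its probe 1 had a mean level of -1.55 ± 0.11 in brain, 3.77 ± 0.65 in kidney and 8.64 ± 0.04 in liver, and the brain minus liver difference was -10.10 (1098-fold lower in brain, limma adjusted p = 1.45e-07). Gsta2 was not well above background on any brain array and was at least 115-fold higher in kidney and at least 195-fold higher in liver. These are lower bounds, so Gsta2 and Gsta3 were not ranked against each other. Such a bound sets the brighter mean against the lowest signal well above background on each dim array, or against the probe's own signal there where that was higher. Gsta3 probe 3 was at least 60.1-fold higher in liver than in brain. Gstm7 probe 2, well above background in liver only, was at least 3.18-fold higher there than in brain and at least 2.48-fold higher than in kidney.

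Brain and kidney were ordered differently from gene to gene. Of 16 probes 12 were lower in brain and 1, Gsta4, was higher, where 79.1% of all probes differed. The 12 include Gsta2, which was not well above background on any brain array. They also include Gsta3 probe 3, well above background on 0 of 3 brain and 1 of 3 kidney arrays. Gstm2 had mean levels of -0.32 ± 0.16 in brain and 4.58 ± 0.33 in kidney, a difference of -4.90. Gsta4 had -0.23 ± 0.09 in brain and -1.10 ± 0.42 in kidney, a difference of 0.86 (limma adjusted p = 0.00229). The Gstm5 probes were lower in brain by small differences of -0.32 and -0.25, and under quantile normalization of the arrays these turned to 0.19 and 0.09, so the order of brain and kidney is not settled for Gstm5. Without the high-dose kidney array, Gstm6 probe 2 and Gstm7 probe 1 were called higher in brain as well, by 0.69 and 0.64. The 2 Gstm6 probes themselves disagree on tissue: the kidney minus liver difference was -2.78 by probe 1 and -6.97 by probe 2.

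The profile of Gstm3, the mu probe with the highest mean level, was compared with all probes well above background everywhere by the root mean square distance of mean-centred log2 levels over the 8 arrays. Its nearest members were Gstm1 probe 2 at 0.06, Gstm4 at 0.11, Gstm1 probe 1 at 0.12 and Gstm6 probe 1 at 0.29, and Gstm5 was far away at 2.52 or more. The nearest named probe outside the set was 4930415C11Rik at 0.10, followed by Alas1, the first enzyme of heme synthesis, at 0.35 and the transcription factor gene Cebpb at 0.40. On the high-dose kidney array 4930415C11Rik differed from control by 1.93, Alas1 by 0.56 and Cebpb by 0.33. The array file describes 4930415C11Rik as a transcript similar to a mouse glutathione transferase, at mm9 chr13:59184952-59185011 (minus strand), and its probe shares a run of 10 bases with Gstm1 probe 2 (chr3:107815595-107815654, minus strand). The last 30 bases of that probe and the first 30 of the Gstm1 probe are shown with the shared run in capitals.
4930415C11Rik: tgaagagtaccgctcatcgcACACCTATAT
Gstm1 probe 2: atcgcaACACCTATATtttcaaagatggcc

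Whether the 4930415C11Rik probe binds Gstm1 RNA was not tested. For Gsta3 probe 1 the nearest named genes outside the set were C8g, encoding a chain of complement component C8, at 0.31, Cyp2d26 at 0.39 and Cyp2d11 at 0.52. On the high-dose kidney array C8g differed from control by 0.60, Cyp2d26 by 0.17 and Cyp2d11 by 0.20.

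Other steps of glutathione conjugation were read from lists of their genes in the high-dose kidney, where 1.42% of all probes passed the 2-fold rule and 7.87% the smaller one in either direction. Of the transferases outside the alpha and mu classes 13 were measured and 2 passed the 2-fold rule, both higher: Gstp1 (1.23), a pi transferase, and Mgst1 (1.19), a membrane-bound microsomal transferase. Gstp2 (0.997) and Gsto2 (0.86) passed the smaller rule only. Of 11 genes of glutathione synthesis and recycling, Chac1 (1.79), which degrades glutathione, was called higher, and Gclc (0.56), the catalytic subunit of the rate-limiting ligase, passed the smaller rule. Of 9 mercapturate pathway genes 0 passed either rule. Of 7 exporters of conjugates Abcc3 (1.53) and Abcc4 (1.50) were called and Abcc1 (0.66) passed the smaller rule. Of 11 NRF2 targets other than transferases 4 were called higher, Cbr3 (1.63), Ephx1 (1.53), Hmox1 (1.18) and Nqo1 (1.02), and Akr1b8 (0.69) and Gclc passed the smaller rule. Of 7 targets of the receptors CAR and AhR 0 were called, and Cyp2b10 (-0.51) was lower by the smaller rule. Of 12 regulators of transferase genes 0 passed either rule at the RNA level. In the high-dose liver, where 0.85% of all probes passed the 2-fold rule, Nqo1 (1.39) was called higher and Osgin1 (-1.09) lower among 11 measured NRF2 targets, and Ggt7 (1.32) was called higher among 8 mercapturate pathway genes.

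**Figure D5:**
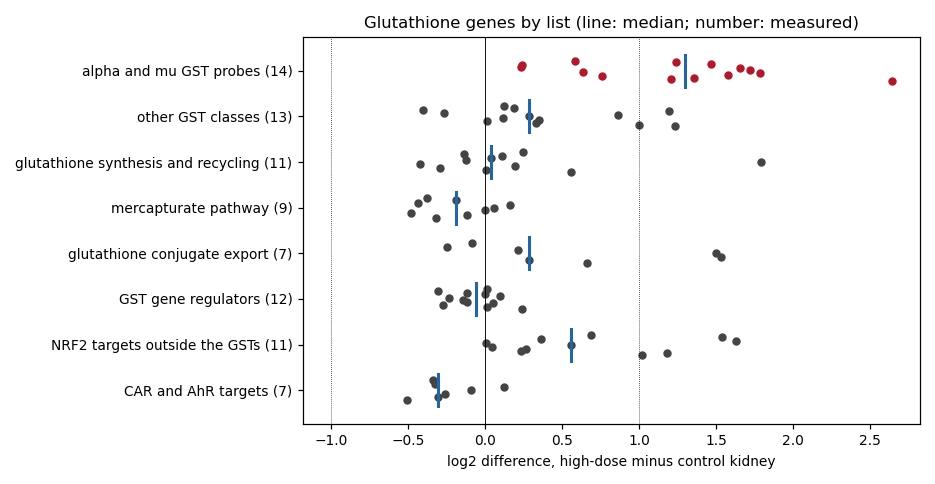
High-dose minus control log2 difference in kidney (horizontal axis) for each measured alpha and mu probe (top row) and each measured gene of the glutathione lists (other rows), with the median as a vertical line and dotted lines at a difference of 1. The alpha and mu probes have a median of 1.29 and all lie above 0, and the medians of the other lists run from -0.31 to 0.56.

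Promoters were read from RefSeq (GRCm38.p6) as the 250 bases before each annotated start, which matched 9 of the 10 genes with 14 starts. The core of the antioxidant response element, spelled TGACNNNGC and searched on both strands, was found at 3 of the 14 starts, 1 each of Gsta3, Gstm5 and Gstm7, and in 12.4% of 32851 RefSeq promoters. The core of the xenobiotic response element, GCGTG, was found at 4 of the 14 starts, in Gsta2, Gstm1 and Gstm5, and in 32.4% of promoters. Windows of starts of the same gene can overlap, and the overlapping Gstm1 windows hold the same GCGTG, which was counted at each start. The promoters below are those of a gene called in kidney with the first motif (Gsta3, chr1:21240335-21240584, plus strand), a gene not called with it (Gstm5, chr3:107895604-107895853, plus strand) and a gene called without it (Gstm3, chr3:107969175-107969424, minus strand). Capitals mark the match, which began 121 bases before the start in Gsta3 and 42 bases before it in Gstm5.
Gsta3: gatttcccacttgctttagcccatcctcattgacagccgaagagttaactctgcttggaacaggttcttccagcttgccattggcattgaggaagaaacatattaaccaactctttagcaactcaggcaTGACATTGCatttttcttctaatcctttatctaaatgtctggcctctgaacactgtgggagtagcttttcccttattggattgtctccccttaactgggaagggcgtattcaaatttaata
Gstm5: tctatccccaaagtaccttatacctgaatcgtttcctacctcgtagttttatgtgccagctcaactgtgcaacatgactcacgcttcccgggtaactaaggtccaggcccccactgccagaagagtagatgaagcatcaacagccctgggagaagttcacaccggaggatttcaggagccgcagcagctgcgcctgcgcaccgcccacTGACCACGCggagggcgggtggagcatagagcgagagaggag
Gstm3: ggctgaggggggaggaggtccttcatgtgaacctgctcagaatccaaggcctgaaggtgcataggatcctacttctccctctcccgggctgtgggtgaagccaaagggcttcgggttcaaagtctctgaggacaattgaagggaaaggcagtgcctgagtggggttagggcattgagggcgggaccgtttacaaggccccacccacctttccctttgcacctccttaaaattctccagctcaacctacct

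A match is a description of these letters and not a site shown to be bound, and its absence says only that the letters are not in this window.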

How the data were processed

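Total RNA, 50 ng per sample, was labelled with Cy3 and hybridised to Agilent 1-colour arrays, per the labels' protocols, with 8 arrays on 1 slide and 1 scan time. Spot intensity, linear, was extracted by the authors with Agilent Feature Extraction (version 12.0.3.1 in the submitters' processing notes). That software also subtracted background and detrended the processed intensity and gave its error, per the file headers. Its 0 or 1 marks of detection, saturation, non-uniformity and outliers were used as deposited. A value table from the authors holds each array's processed intensity divided by its 75th percentile over all spots, as found by setting it against the scanner files; its column medians were 0.112 to 0.114 for brain, 0.0905 to 0.0940 for kidney and 0.0915 to 0.0918 for liver.

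Control spots and flagged outliers were left out, log2 intensity was centred on the 75th percentile of each array over non-control spots, and spots of a probe were averaged. Gene names were updated by accession through RefSeq (GRCm38.p6) for 32994 probes, 1535 of which took a new name, and 23611 probes kept the file's name. Probe coordinates (mm9) were taken from the array files. Samples were grouped by the labels' tissue and dose.

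Single-tissue differences had no test. Tissue and dose effects were tested by limma (version 3.58.1, R 4.3.3; empirical Bayes with a trend, 3 residual degrees of freedom, or 2 with a high-dose term of its own for 1 tissue), on 37861 probes well above background on every array of a tissue for tissues and on 25303 for dose, and adjusted over all of them. Tables and plots used Python 3.11.15, numpy 2.4.6, pandas 2.3.3 and matplotlib 3.10.9. The limma model with tissue and dose as factors was run on simulated data for its high-dose and brain minus liver contrasts. The model with a high-dose term of its own for 1 tissue was not. Every member probe was named; genes of a list were named when past a size rule, up to 4 a list in each direction, by their brightest probe. The members and lists were chosen with earlier results of these data known. Alternatives were other scalings, normexp background correction with an offset of 50, the value table, other filters, the mean of a gene's probes, tissue alone as a factor and leaving out each array. The own high-dose term and the share of the liver level were added after seeing the data. The number of arrays limits the precision.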

Additional observations from a re-analysis of the deposited data

Results flagged for a closer look

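For 7 member probes the high-dose difference in kidney was larger than that shared by brain and liver, in the limma model with a kidney term that was chosen after seeing the data. That term sets the high-dose kidney array against a baseline from the control and low-dose kidney arrays plus the effect shared by brain and liver. It was 1.40 for Gsta3 probe 2, 1.47 for Gstm1 probe 1 and 1.68 for Gstm1 probe 2. It was 1.58 for Gstm3, 1.65 for Gstm4, 1.51 for Gstm6 probe 1 and 1.47 for Gstm6 probe 2. In each case the only kidney array at that dose was higher than its control by over 1, and on the high-dose brain and liver arrays the differences from control lay between -0.30 and 0.08. The same term called 4 probes of other transferase classes and 1 hepatocyte marker probe among its 45. No group held enough arrays to look for an outlying sample.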

How the results depend on the processing

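No paired analysis was possible because each group has 1 array and no label pairs arrays by mouse; tissue was a factor in the limma model. The 9 higher member probes of the high-dose kidney kept their count under every scaling, background correction and filter tried, and came to 6 genes when the probes of a gene were averaged. With no filter on dim probes, 1 probe was lower by the smaller rule in low-dose brain, 1 was higher in high-dose brain against control and 1 higher against the low dose, where the filter left 0 in each. The added probe is Gsta3 probe 3, which is not well above background in brain. Averaging the probes of a gene left 0 of the liver calls by either rule, since Gsta3 probe 3 is averaged with the other Gsta3 probes. In the tissue comparison, the count of members higher in brain than in kidney was 2 under normexp with quantile normalization, against 1, and 1 to 3 over the arrays left out in turn, the highest without the high-dose kidney. The brain minus kidney difference of Gstm5 turned to 0.19 and 0.22 by probe 1 and to 0.088 and 0.074 by probe 2 under quantile normalization alone and with normexp; the cause was not tested. The kidney term called 7 or 8 members under other scalings and filters and 5 to 8 with another array left out. Precision is limited by 1 array per group and, for Gsta2, Gsta3 probe 3 and Gstm7 probe 2, by signals not well above background in brain.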

Other observations

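Gstm1 probe 1, which the array file places on mm9 chromosome 5 and not in the mu cluster, lies there between the genes Srrm4 and Gm29926, and the RefSeq table of GRCm38.p6 lists Gstm2-ps1 and Gm29843 between those genes. Its high-dose minus control difference was 1.58 in kidney and -0.06 in liver, beside 1.78 and -0.08 for Gstm1 probe 2, which lies in the cluster. In brain, probe 1 differed by 0.04 and probe 2 by -0.01 at the high dose.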
